A study of Mus musculus with 2 samples.

Results

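The immunoglobulin variable (V) genes are the germline segments from which the antigen-binding ends of antibody chains are made. They were taken here as every gene whose symbol starts with Ighv, Igkv or Iglv, which gave 348 genes of 31053 in the count tables: 185 Ighv genes of the heavy chain locus on chromosome 12, 160 Igkv genes of the kappa light chain locus on chromosome 6 and 3 Iglv genes of the lambda light chain locus on chromosome 16. The choice used symbols and no measured value. All 348 matched the mouse GENCODE M21 annotation (build GRCm38) by gene identifier, which lists 130 of them as pseudogenes.

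A developing B cell joins 1 V segment to joining segments, and for the heavy chain also to a diversity segment, and splices the product to a constant region. Each B cell is known to express a single heavy chain and a single light chain, kappa or lambda, a rule called allelic and isotypic exclusion. Resting B cells carry far less immunoglobulin messenger than plasma cells, the antibody-secreting end stage, which devote much of their transcription to it. In the spleen and blood of mice most B cells use kappa.

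Pancreatic cells of mice on the C57Bl/6J background, all of genotype R26[CA]30EYFP and all taken after pancreatitis, were sorted by enhanced yellow fluorescent protein (EYFP) into a positive and a negative fraction, with 1 single-cell library made from each. The reporter sits in the Rosa26 locus, and its name carries a run of 30 CA repeats. The treatment field of both libraries reads None. The labels used here do not state how many animals were pooled, their age, how long after pancreatitis they were taken or what drives the reporter. With 1 library per fraction no test of a difference was possible: the 95% intervals below are exact and cover counting error only. Fractions are compared as libraries, and fewer cells of a kind and less RNA per cell cannot be told apart in sums over whole libraries.

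The EYFP positive library held 1717 barcodes and 4006807 unique molecular identifiers (UMIs, each standing for 1 captured transcript), and the EYFP negative library held 745 barcodes and 5295816 UMIs. After filters on genes and mitochondrial share, 860 and 553 barcodes were kept. B-like cells, named from 14 B lineage markers of which all 14 were detected in both libraries, numbered 112 in the EYFP positive and 104 in the EYFP negative library. Their median depth was 1349 UMIs in the EYFP positive and 5573 UMIs in the EYFP negative library. The EYFP negative B-like cells all lay in cluster 3, which also held 46 EYFP positive cells, and the other 66 EYFP positive cells formed cluster 5, with a median of 692 UMIs. In B-like cells the 11 T cell markers summed to 5 UMIs in the EYFP positive and 41 in the EYFP negative library, and Cd3d, Cd3e, Cd3g and Trac were at 0 in the former. The 10 acinar markers stood at 2737 CPM (UMIs per 1000000 summed UMIs; 9 of 10 seen) in EYFP positive and 39.3 CPM (6 of 10 seen) in EYFP negative B-like cells. When the total excluded acinar, ribosomal and mitochondrial genes together, the V levels of B-like cells given below were 303 and 273 CPM in place of 215 and 183.

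The libraries shared 4 barcode sequences. In all 4 the EYFP negative copy was deep, with 37662, 44602, 68630 and 70711 UMIs, and the EYFP positive copy was shallow, with 845, 997, 879 and 1058 UMIs. Nearly every gene of the shallow copy was also in the deep one: 144 of 151, 144 of 154, 545 of 548 and 691 of 692 genes. The 2 shared barcodes with the most V UMIs are barcodes of extreme V counts described next, and their EYFP positive copies, which did not pass the filter on genes, held Igkv1-122 at 2 UMIs in one, and Igkv12-46 at 2 and Ighv3-6 at 1 in the other, the same V genes as the deep copies. None of the 4 was B-like. Without them the V UMIs of all EYFP positive barcodes went from 254 to 249 and the V genes seen from 47 to 46, whereas the V UMIs of all EYFP negative barcodes went from 747 to 137 and the V genes seen from 67 to 65.

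Of the V UMIs in the data, most lay in 3 barcodes. All barcodes together held 1001 V UMIs, 254 in the EYFP positive and 747 in the EYFP negative library, and barcodes with at least 3% of the V UMIs of their library were set apart as extreme. There were 3: 1 EYFP positive barcode with 175 V UMIs (68.9% of its library) and 2 EYFP negative barcodes with 499 and 107 V UMIs (together 81.1%). They held 781 of the 1001 V UMIs, or 78.0%. The next highest barcode held 4 V UMIs among EYFP positive and 6 among EYFP negative barcodes, so nothing lay near the threshold on either side. B-like cells held 65 V UMIs (25.6% of the library) in the EYFP positive and 116 (15.5%) in the EYFP negative library.

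**Figure D1:**
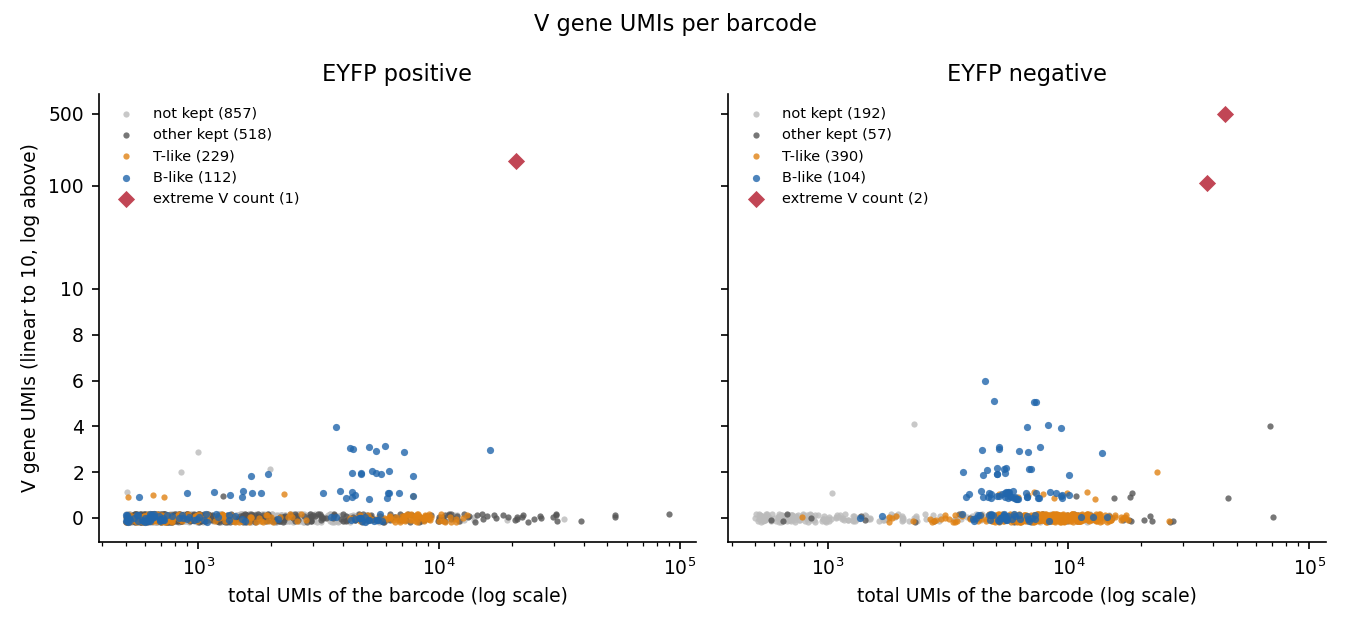
V gene UMIs of each barcode (vertical axis, linear up to 10 and logarithmic above, points below 10 shifted slightly at random) against its total UMIs (horizontal axis, log scale), in the EYFP positive library at left and the EYFP negative library at right, with the number of barcodes of each kind in brackets. The 3 barcodes of extreme counts, at 175, 107 and 499 V UMIs, stand far above all others, which hold at most 4 V UMIs in the EYFP positive and 6 in the EYFP negative library.

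Each extreme barcode was led by 1 heavy and 1 kappa V gene, and the germline ends of these genes are shown because they name the chains each barcode carried. The lines give the last 90 bases of the coding part of each V segment, 5′ to 3′ on the gene's own strand, from the GENCODE M21 transcripts (GRCm38). Capitals mark the motif TATTNCTGN, which holds the codon of the conserved cysteine that closes the framework before the third complementarity-determining region. What follows the capitals is the germline start of that region.
Ighv11-2: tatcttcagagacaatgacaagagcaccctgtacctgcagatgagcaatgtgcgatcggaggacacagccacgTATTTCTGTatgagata
Igkv14-126: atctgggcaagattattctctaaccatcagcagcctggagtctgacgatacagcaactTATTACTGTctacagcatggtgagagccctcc
Ighv1-9: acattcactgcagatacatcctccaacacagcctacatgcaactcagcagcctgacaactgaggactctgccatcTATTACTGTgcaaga
Igkv1-122: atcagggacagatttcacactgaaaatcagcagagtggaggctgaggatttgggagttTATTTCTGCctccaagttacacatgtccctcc
Ighv3-6: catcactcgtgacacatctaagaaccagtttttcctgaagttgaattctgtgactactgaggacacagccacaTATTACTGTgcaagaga
Igkv12-46: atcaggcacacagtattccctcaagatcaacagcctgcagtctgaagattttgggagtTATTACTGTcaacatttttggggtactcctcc
Igkv12-44: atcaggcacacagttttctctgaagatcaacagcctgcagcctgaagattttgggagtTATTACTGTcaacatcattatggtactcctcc
Iglv1: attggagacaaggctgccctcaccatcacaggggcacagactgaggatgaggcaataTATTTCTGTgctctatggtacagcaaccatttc
Iglv3: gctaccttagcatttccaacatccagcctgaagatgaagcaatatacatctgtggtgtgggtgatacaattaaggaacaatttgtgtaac
The heavy chain stretches lie at chr12:114048241-114048330, chr12:114583569-114583658 and chr12:114288152-114288241, all on the minus strand. Those of Igkv14-126 and Igkv1-122 lie at chr6:67896553-67896642 and chr6:68017399-68017488 on the plus strand, and those of Igkv12-46 and Igkv12-44 at chr6:69764523-69764612 and chr6:69814631-69814720 on the minus strand. Iglv1 and Iglv3 lie at chr16:19085017-19085106 and chr16:19241207-19241296 on the minus strand. Every stretch is exonic, in the last coding exon of its gene. The 3 heavy chain stretches end 6 or 8 bases after the motif, and the kappa and Iglv1 stretches run on for 23 or 24 bases. Searched on both strands of the V transcripts, the motif was in 171 of 218 V genes not listed as pseudogenes (78.4%) and, counting either strand, in 61 of 130 pseudogenes (46.9%). Iglv3 does not hold these letters in the 90 bases shown.

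The EYFP positive extreme barcode held Ighv11-2 at 81 UMIs, Igkv14-126 at 70 and Iglv1 at 24, and no other V gene. Ighv11-2 with Igkv14-126 is a pair known from B-1 cells, an innate-like B cell lineage, whose receptors bind phosphatidylcholine. Its constant genes were Ighm (the IgM heavy chain, 1722 UMIs) and Igkc (the kappa constant region, 10107 UMIs), with 1283 UMIs of Jchain, the joining chain of secreted IgM. Immunoglobulin and Jchain transcripts together were 64.4% of its 20929 UMIs. In the rest of that library Ighv11-2 had 1 UMI and Igkv14-126 none. Of the 31-base words of Ighv11-2, 50.6% also occur in Ighv11-1, which had no UMI in this barcode.

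The larger EYFP negative extreme barcode held Ighv3-6 at 200 UMIs, Igkv12-46 at 184, Iglv1 at 104, Igkv12-44 at 6 and Iglv3 at 5. It also expressed Ighm (9293 UMIs), Igkc (20407 UMIs) and Jchain (3273 UMIs). Immunoglobulin and Jchain transcripts together were 75.7% of its 44602 UMIs. The 90 bases of Igkv12-46 and Igkv12-44 shown above are the same at 82 positions, and 31.4% of the 31-base words of Igkv12-46 occur in Igkv12-44, so UMIs may be split between them by the counting. All 6 Igkv12-44 UMIs of the EYFP negative library lay in this barcode.

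The other EYFP negative extreme barcode held Igkv1-122 at 89 UMIs, Ighv1-9 at 15, Iglv3 at 2 and Igkv8-18 at 1. Its heavy chain constant gene was Ighg2b (6821 UMIs), which encodes the switched isotype IgG2b, against 33 UMIs of Ighm. It held 19473 UMIs of Igkc and 1666 of Jchain. Of 7 plasma cell markers, Prdm1, which encodes the factor that drives plasma cell fate, and Tnfrsf17, the survival receptor BCMA, were at 0 in it, while all 7 were seen in both IgM barcodes. The contrast rests on few UMIs: the Ighv11-2 and Ighv3-6 barcodes held 2 and 2 of Prdm1 and 4 and 2 of Tnfrsf17. The IgG2b barcode held Mzb1 at 63 UMIs, Xbp1 at 28, Derl3 at 8 and Sdc1 at 2. In the order Ighv11-2, Ighv3-6 and Ighv1-9 barcode, the 14 B lineage markers summed to 35, 34 and 44 UMIs and the 11 T cell markers to 3, 2 and 3. Cd79a, the signalling chain of the B cell receptor, held 20, 23 and 11 of the B marker UMIs, and Pax5, a regulator of B cell identity, was at 0 in all 3. Cd3d, Cd3e and Cd3g were at 0 in all 3 as well. With immunoglobulin genes left out of the clustering, all 3 fell in cluster 4, which its other cells named T-like. They are therefore described apart here, and the class levels and shares below leave them out unless they are said to be counted.

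Chains differed in how many V UMIs accompanied each constant UMI. In the Ighv11-2 barcode there were 4.70 heavy V UMIs per 100 heavy constant UMIs (95% interval 3.74 to 5.85) and 0.69 kappa V UMIs per 100 Igkc UMIs (0.54 to 0.88). For lambda there were 12.4 V UMIs per 100 constant UMIs (7.93 to 18.4). The Ighv3-6 barcode had 2.15 (1.86 to 2.47) for the heavy chain, 0.93 (0.80 to 1.07) for kappa and 37.7 (31 to 45.5) for lambda. The Ighv1-9 barcode had 0.22 (0.12 to 0.36), 0.46 (0.37 to 0.57) and 0.90 (0.11 to 3.25). In both IgM barcodes the lambda interval lies above the kappa interval, and in the IgG2b barcode they overlap. Lambda genes thus made up 25.5% of light chain V UMIs in the Ighv11-2 barcode and 36.5% in the Ighv3-6 barcode, but 1.88% and 1.40% of their light chain constant UMIs.

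**Figure D2:**
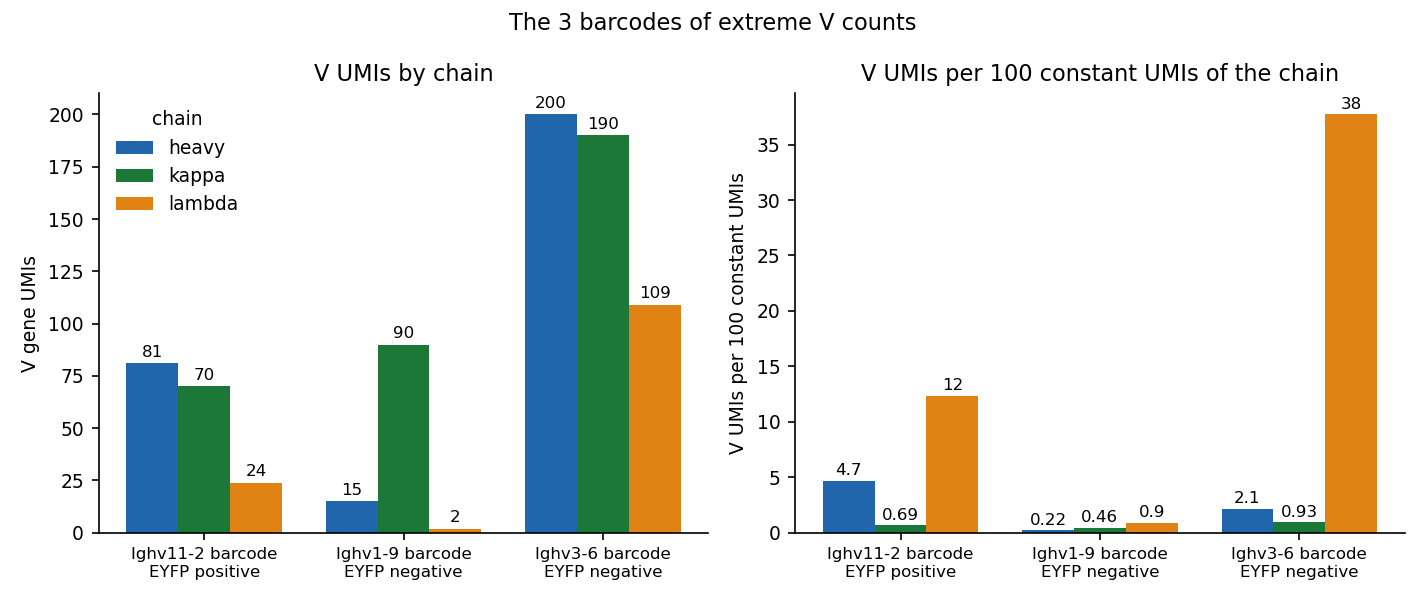
V UMIs of the 3 barcodes of extreme counts by chain (left, bars from 0, in UMIs) and V UMIs per 100 constant UMIs of the same chain (right), with heavy, kappa and lambda in blue, green and orange. Lambda is the lowest chain by V UMIs in all 3 barcodes, at 24, 2 and 109, and the highest per constant UMI, at 12.4, 0.90 and 37.7.

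Outside these 3 barcodes, V transcripts were sparse and lay mainly in B-like cells. In EYFP positive B-like cells 65 V UMIs (38 Ighv, 25 Igkv and 2 Iglv) gave 215 CPM (95% interval 166 to 275). In EYFP negative B-like cells 116 V UMIs (49 Ighv, 51 Igkv and 16 Iglv) gave 183 CPM (151 to 219). All kept barcodes outside B-like and the extreme ones held 6 V UMIs in the EYFP positive library, or 2.48 CPM (0.91 to 5.39), and 20 in the EYFP negative library, or 4.83 CPM (2.95 to 7.46). B-like cells were therefore 87.0-fold higher (37.9 to 246) in the EYFP positive and 37.8-fold higher (23.4 to 64.1) in the EYFP negative library. With the extreme barcodes counted outside B-like, where the clustering puts them, these folds were 2.91 and 1.23, so 1 barcode in the former and 2 in the latter set them.

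By share of cells, 38 of 112 EYFP positive B-like cells held a V UMI, or 33.9% (25.3 to 43.5), and 64 of 104 EYFP negative ones, or 61.5% (51.5 to 70.9). In T-like cells, taken as a class that should lack V transcripts, the shares were 5 of 229 (2.18%, interval 0.71 to 5.02) and 10 of 390 (2.56%, 1.24 to 4.67), at median depths of 1198 and 8557 UMIs. A constant gene UMI was seen in 43.2% and 90.3% of these T-like cells, at 300.5 and 424 CPM, against 13610.0 and 16188 CPM in B-like cells. In EYFP negative T-like cells the heavy constant genes had 1068 UMIs and Igkc 334, whereas in B-like cells of that library they had 2817 and 5242, so the chains did not stand in the same proportion. The B-like cells of the libraries also differed in depth. In cluster 3 alone the EYFP positive share was 65.2% (49.8 to 78.6), and in the shallow cluster 5 it was 12.1% (5.38 to 22.5). Thinned to 500 UMIs per cell, a depth every B-like cell reached, the expected shares were 8.18% in EYFP positive and 8.80% in EYFP negative B-like cells. Thinned to 1000 UMIs, which left out 47 EYFP positive cells and no EYFP negative cell, they were 22.3% and 16.5%.

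**Figure D3:**
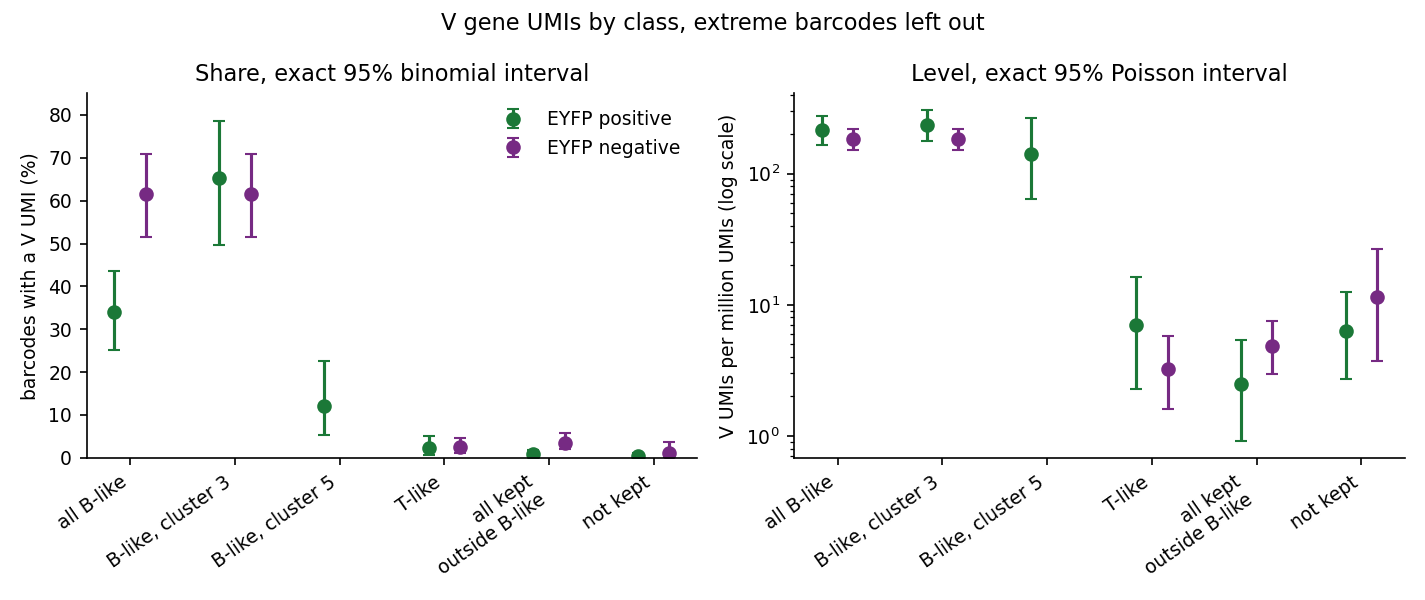
Share of barcodes with at least 1 V UMI (left, percent) and V UMIs per 1000000 UMIs (CPM, right, log scale) by class in the EYFP positive (green) and EYFP negative (purple) library, with the extreme barcodes left out and exact 95% intervals for counting error. B-like cells stand at 33.9% and 61.5%, against 2.18% and 2.56% in T-like cells, and at 215 and 183 V CPM.

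Gene by gene, counts were too low for most V genes to be compared. Among genes with at least 10 UMIs over B-like and other kept cells of the EYFP positive library, 8.71% of all genes were at least 2-fold higher in B-like cells and 24.3% at least 2-fold lower. Of the V genes 3 could be compared, 0 were higher, and Ighv11-2 and Igkv14-126 were lower, since the extreme barcode counts among the other cells. In the EYFP negative library the shares over all genes were 8.77% higher and 15.6% lower. There 6 V genes could be compared: Iglv3 was higher, and Ighv3-6, Igkv1-122 and Igkv12-46 were lower, again the genes of the extreme barcodes. With extreme barcodes left out and at least 3 UMIs, a combination chosen after seeing the data, 6 of 6 V genes in the EYFP positive and 17 of 18 in the EYFP negative library were at least 2-fold higher in B-like cells, against 9.61% and 9.89% of all genes. Igkv12-46 was the exception, with 0 of its 4 UMIs in B-like cells. Since a gene with so few UMIs reaches this minimum mostly through B-like cells, that count supports nothing by itself.

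Of the 348 V genes, 92 were seen in any barcode, 47 in the EYFP positive and 67 in the EYFP negative library, with 22 in both. The other 256 had 0 UMIs everywhere. Pseudogenes were seen for 4 of 130, against 88 of 218 other V genes. B-like cells showed 39 V genes in the EYFP positive and 58 in the EYFP negative library. The 13 in both are 33.3% of the former list and 22.4% of the latter. Of the 84 V genes seen in B-like cells of either library, 41 had 1 UMI, 21 had 2 and 22 had 3 or more. A gene with 1 UMI cannot be in both lists, so the overlap is not read as a difference between the libraries. In 39 of those 84 genes more than 50% of the 31-base words also occur in another V gene, and those 39 hold 91 of the 181 V UMIs of B-like cells, so their assignment is uncertain.

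The V gene with the most UMIs in B-like cells was Iglv1, with 11 UMIs in 10 EYFP negative cells and 0 in EYFP positive cells. Iglv3 had 5 UMIs in 3 EYFP negative cells and 2 UMIs in 2 EYFP positive cells, and Iglv2 had none. Ighv1-26, of the large Ighv1 family, had 8 UMIs in 7 EYFP negative cells and 1 UMI in EYFP positive cells, and 74.8% of its 31-base words occur in other V genes. The next heavy chain genes of the EYFP negative library were Ighv1-55 with 4 UMIs, then Ighv1-18, Ighv1-78 and Ighv2-5 with 3 each. In EYFP positive cells Ighv1-64 and Ighv8-12 led with 4 UMIs each in 2 cells, followed by Ighv1-80 with 3. No heavy chain gene led both lists, but at most 8 and 4 UMIs per gene are too few to read this as a difference.

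Among kappa genes, Igkv12-44 led the EYFP positive cells with 7 UMIs in 3 cells and had 0 in EYFP negative B-like cells. Igkv4-70 followed with 3 UMIs in 1 cell. In the EYFP negative cells Igkv1-110, Igkv1-117, Igkv5-43 and Igkv6-23 had 4 UMIs each, and Igkv1-117 also had 2 UMIs in 1 EYFP positive cell. As a family Igkv12 took 10 of 25 kappa V UMIs of EYFP positive cells (40.0%, interval 21.1 to 61.3) and 0 of 51 of EYFP negative cells, whose interval reaches 6.98%. The intervals do not overlap, but the 10 UMIs come from few cells and this family was singled out after its values were seen. Igkv4 (14 UMIs) and Igkv1 (13 UMIs) were the families with the most kappa UMIs over both libraries.

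Heavy chain UMIs were spread along the locus. Ighv1, the largest heavy chain family, took 46 of 87 Ighv UMIs (52.9%, 41.9 to 63.7), and it makes up 47.0% of the Ighv genes not listed as pseudogenes. In all, 10 of 16 Ighv families and 14 of 20 Igkv families were seen in B-like cells. Ighv genes not listed as pseudogenes were cut by gene order into 3 parts of equal gene number. The part nearest the joining segments held 13 of 38 UMIs (34.2%) in EYFP positive and 12 of 48 (25.0%) in EYFP negative cells. The middle part held 15.8% (6.02 to 31.3) and 43.8% (29.5 to 58.8), and the far part 50% and 31.3%. For Igkv the 3 parts from the joining end held 29.2%, 54.2% and 16.7% in EYFP positive and 34%, 28.0% and 38% in EYFP negative cells, over 24 and 50 UMIs. UMIs of 1 cell share a source, so these intervals are too narrow.

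**Figure D4:**
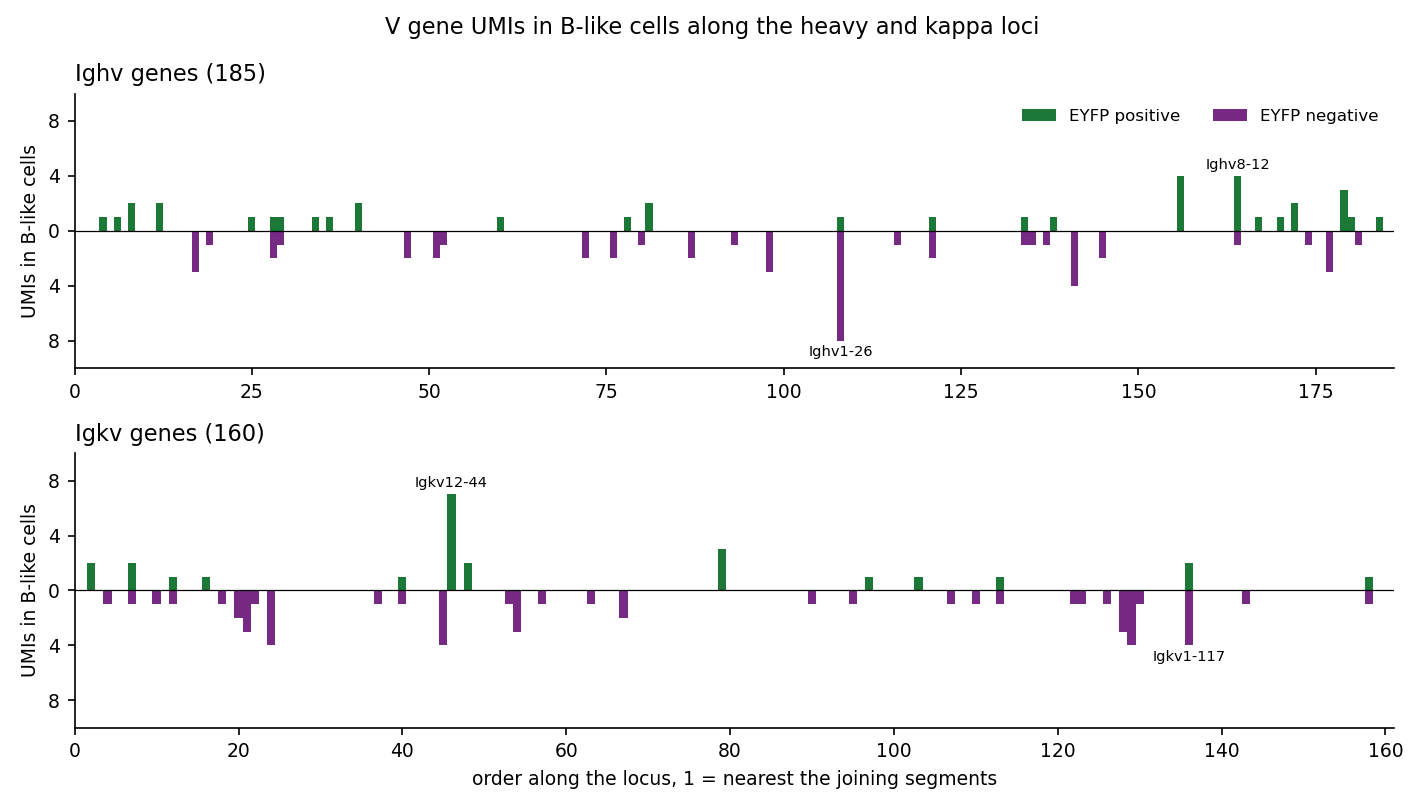
UMIs in B-like cells of each Ighv gene (top) and Igkv gene (bottom), in gene order from the joining segments, with EYFP positive cells drawn upward in green and EYFP negative cells downward in purple. Genes with 5 or more UMIs over both libraries are named. UMIs are spread along both loci, and the highest bars are Ighv1-26 at 8 UMIs and Igkv12-44 at 7.

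Within single B-like cells 1 V gene usually stood for a heavy chain. Cells held 0 to 4 V UMIs from 0 to 2 V genes in the EYFP positive library (median 0 of both) and 0 to 6 V UMIs from 0 to 4 V genes in the EYFP negative library (median 1 of both). A heavy chain V gene was seen in 30 and 35 cells, a light chain V gene in 17 and 45, and both in 9 and 16. Among cells with at least 2 Ighv UMIs, 1 gene took most of them in 7 of 7 EYFP positive and 9 of 10 EYFP negative cells (90%, 55.5 to 99.7). For light chains the counts were 7 of 7 in EYFP positive and 6 of 14 in EYFP negative cells (42.9%, 17.7 to 71.1). In 12 of those 14 cells more than 1 light chain V gene was seen.

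**Figure D5:**
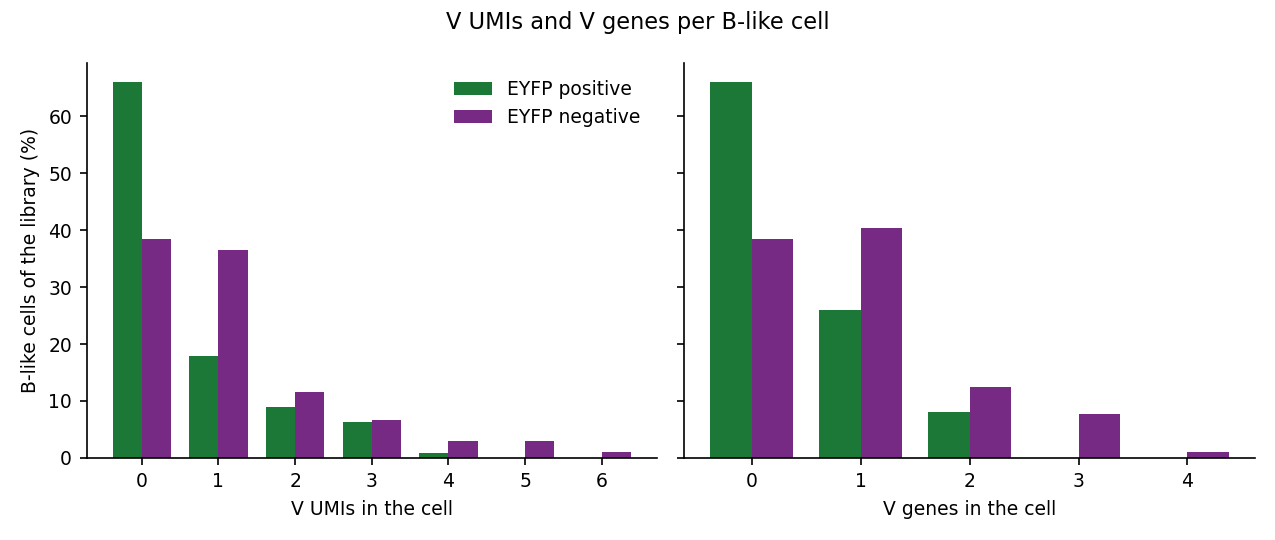
Share of B-like cells (percent of the library's B-like cells, bars from 0) by number of V UMIs (left) and of V genes (right) in the cell, for the EYFP positive (green) and EYFP negative (purple) library. No V UMI was seen in 66.1% of EYFP positive and 38.5% of EYFP negative cells, and 3 or more V genes occurred in 9 EYFP negative cells.

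A leading heavy and a leading light chain gene could be named together in 21 cells, 9 EYFP positive and 12 EYFP negative. They made 21 different pairs, so no pair was shared by 2 cells. With 21 of 216 B-like cells and few UMIs per chain, the absence of a given or repeated pair tells nothing about shared clones. For a gene to lead, 1 UMI was enough where no other gene of the chain was seen. Ighv1-26 led in 8 cells on 9 UMIs, and was paired with Igkv10-96, Igkv5-43 and Iglv1 in 1 cell each. Iglv1 led in 5 cells, and Igkv1-117 and Iglv3 in 4 each. None of the 3 heavy and kappa pairs of the extreme barcodes was seen in a B-like cell of either library. Ighv11-2 and Igkv14-126 had 0 UMIs in B-like cells of both. Ighv1-9 had 2 UMIs in 1 EYFP negative cell and Igkv1-122 had 1 UMI in another. Ighv3-6 had 1 UMI in 1 EYFP positive cell, led by Igkv3-7 for the light chain, and Igkv12-46 had 2 UMIs in another, led by Ighv1-80 for the heavy chain.

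Kappa and lambda V genes were seen together in 0 EYFP positive and 7 EYFP negative B-like cells. Lambda made up 2 of 27 light chain V UMIs in EYFP positive cells (7.41%, 0.91 to 24.3) and 16 of 67 in EYFP negative cells (23.9%, 14.3 to 35.9). With the extreme barcodes among the B-like cells, as when immunoglobulin genes entered the clustering, the lambda shares were 21.5% and 27.7%. Of light chain constant UMIs the lambda share was 29.6% and 29.8%. Of cells with at least 2 light chain V UMIs and more of one kind, 0 of 7 and 2 of 11 were given to lambda. In the EYFP negative library 13 of the 16 lambda V UMIs lay in the 91 cells with more Igkc than lambda constant UMIs. Per 100 lambda constant UMIs these cells held 0.78 lambda V UMIs (0.42 to 1.33), and the 10 cells with more lambda constant UMIs held 0.62 (0.13 to 1.82). The lambda V genes were thus seen in cells of either kind.

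Between the libraries, the V level of B-like cells was 1.18-fold higher in EYFP positive than in EYFP negative cells, with an interval of 0.86 to 1.61 that includes no difference. With the extreme barcodes among the B-like cells, as when immunoglobulin genes entered the clustering, it was 0.74. By chain, without the extreme barcodes, the ratio was 1.63 (1.04 to 2.55) for Ighv and 1.03 (0.61 to 1.70) for Igkv. For Iglv it was 0.26 (0.03 to 1.12), on 2 against 16 UMIs. For the constant genes it was 0.84 (0.81 to 0.87). The Ighv ratio rests on 38 against 49 UMIs, and the extreme barcodes left out of it held 81 and 215 Ighv UMIs. UMIs of 1 cell share a source, so the intervals of these ratios are too narrow. V UMIs per 100 constant UMIs were 1.58 (1.22 to 2.02) in EYFP positive and 1.13 (0.93 to 1.35) in EYFP negative cells, a ratio of 1.40 (1.02 to 1.92). By chain, EYFP positive cells held 3.20 heavy, 1.22 kappa and 0.23 lambda V UMIs per 100 constant UMIs of the chain, and EYFP negative cells 1.74, 0.97 and 0.72. The libraries are labelled as made with a 5′ kit, in which reads start at the 5′ end of the transcript, where the V segment lies. What the low V counts owe to the kit or the counting was not tested.

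Other genes of the B cell receptor pathway were compared between the libraries in the same B-like cells. Over all genes with at least 10 UMIs, 5.37% were at least 2-fold higher and 9.9% at least 2-fold lower in EYFP positive cells. Of 34 listed genes (the receptor complex and its kinases, coreceptors, octamer factors and lineage regulators, recombination genes and plasma cell genes) 22 could be compared, 0 were higher and 0 lower, with a median ratio of 0.84 against 0.93 over all genes. Cd79a stood at 2359 CPM in EYFP positive and 3108 in EYFP negative cells. Pou2af1, the coactivator of octamer factors at V gene promoters, stood at 99.4 and 149 CPM, and Ebf1, a regulator of B cell identity, at 1949 and 1663. Rag1, Rag2 and Dntt, which cut and extend V segments during recombination, had 0 UMIs in B-like cells of both libraries, as did the surrogate light chain genes Igll1, Vpreb1 and Vpreb2. Vpreb3, which also stays on in mature B cells, had 99 and 187 UMIs. Of the V genes, 1 reached 10 UMIs over both libraries, Iglv1, and it was not called.

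The V UMIs outside B-like cells were mostly single. In the EYFP positive library 6 kept barcodes held 1 V UMI each, 5 of them T-like. In the EYFP negative library 16 kept barcodes held 20 V UMIs, and 8 of the 20 were of leading V genes of the library's own extreme barcodes: 4 of Igkv12-46, 2 of Igkv1-122 and 2 of Ighv3-6. Cluster 16, led by hemoglobin and cell cycle genes, held 4 V-bearing barcodes, and 3 of these held 344, 113 and 96 UMIs of the 14 B lineage markers. In the same order these 3 held 7, 3 and 6 hemoglobin UMIs and 40, 15 and 13 Jchain UMIs. Their V UMIs, 4, 1 and 1, count among the 20 outside B-like cells. The deepest, a shared barcode of 68630 UMIs, held Igkv10-96 at 3 UMIs and Ighv1-80 at 1, with 67 UMIs of the proliferation marker Mki67. One T-like barcode with 2 V UMIs, Ighv9-1 and Ighv3-6, held 133 B marker UMIs and 56 T marker UMIs. Macrophage-like cells with a V UMI numbered 0 of 53 in the EYFP positive library, which allows a share of up to 5.66%, and 1 of 11 in the EYFP negative library. Natural killer-like cells with a V UMI numbered 0 of 32, which allows up to 9.38%, and 1 of 14. The EYFP positive cells of these classes had median depths of 971 and 803 UMIs, so the limits hold for cells with a V UMI and not for cells expressing a V gene.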

How the data were processed

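Raw counts of unique molecular identifiers (UMIs) per gene and barcode were read from the 2 deposited count matrices, which the authors made with Cell Ranger 2.1.0 and build GRCh38, per the submitters' processing notes, whereas the matrix headers give software version 3.1.0 and the gene identifiers are of mouse. Per the labels' protocols, library preparation used a Chromium Single Cell 5′ kit (v1.1). The filters required 200 genes and no more than 20% mitochondrial UMIs per barcode, passed by 860 of 1717 and 553 of 745. Clusters were built over both libraries in scanpy 1.11.5 (2000 variable genes without immunoglobulin genes or Jchain, 30 principal components, 15 neighbours, Leiden resolution 1.0). A cluster took the class whose markers had the highest median log2 ratio over the other clusters, if that was at least 1. At least 3 of these markers had to be at least 2-fold higher, with 5 or more UMIs. A cluster stayed unnamed if its 10 leading genes held more markers of another class. A shallow cluster with none of its own markers among them also stayed unnamed. Doublets were not removed. Scrublet marked 2 barcodes in each library, of which 1 was a barcode of extreme V counts and 0 were B-like.

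Extreme barcodes held at least 3% of the V UMIs of their library over all deposited barcodes. Levels and shares of classes leave them out unless they are said to be counted. They stayed in totals over whole libraries and in the gene-by-gene comparison, except where said to be left out. In the processing settings they also stayed in the class their cluster gave, with the same exception. Levels are V UMIs per 1000000 summed UMIs (CPM). Intervals are at the 95% level, from exact Poisson, Clopper-Pearson or conditional binomial limits (scipy 1.17.1), and leave out every error but counting. Where no barcode held a V UMI, the limit is that of 3 counts. A gene counted as higher or lower past 2-fold with at least 10 UMIs over both sides, a gene at 0 being set at 3 UMIs. Thinned values are expectations over all draws. The fold rule, the intervals and the thinning were checked on simulated data. With 1 library per group there was no test. Named genes were the 5 Ighv, 5 Igkv and 3 Iglv genes with most UMIs in B-like cells of each library (ties cut short), the leading genes of extreme barcodes and genes leading in at least 4 B-like cells. The members, lists and rules were chosen with earlier results of these data known.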

Additional observations from a re-analysis of the deposited data

Results flagged for a closer look

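V transcripts also occurred in barcodes that failed the filter on genes or on mitochondrial share and enter no comparison, above the 3 UMIs that a count of 0 allows. In the EYFP positive library these barcodes held 8 V UMIs in 4 of 857. The shallow copies of both EYFP negative extreme barcodes held 5 of the 8, another barcode held Ighv1-26 at 2 UMIs with 43.5% mitochondrial UMIs, and the last held Ighv1-76 at 1 UMI. In the EYFP negative library they held 5 V UMIs in 2 of 192. One of these, with 2285 UMIs of which 27.0% were mitochondrial, held Ighv1-80 at 3 and Igkv8-24 at 1 beside 449 constant UMIs and 16 Jchain UMIs, and the other held Igkv17-121 at 1.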

How the results depend on the processing

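Over 29 results and 22 settings, 216 values were recomputed. Of these, 162 stayed within the counting interval of the main value (for counts, within 1.5 times) and 54 moved. For barcodes outside B-like and for T-like cells, the main values here count the extreme barcodes where the clustering puts them. In the EYFP positive and EYFP negative library they are 74.1 and 148 CPM and 0.94% and 4.01% of barcodes outside B-like. For T-like cells they are 2.61% and 3.06%. With immunoglobulin genes allowed in clustering, the 3 extreme barcodes joined the B-like cells. The B-like V level was then 745 and 1006 CPM in the EYFP positive and EYFP negative library, the level outside 2.48 and 4.83, the V genes at least 2-fold higher in B-like cells 3 and 6, the lambda share of light chain V UMIs 21.5% and 27.7%, and the ratio between the libraries 0.74. Choosing B-like cells per barcode from marker UMIs also took in all 3 and gave 411 and 735 CPM, 1.86 and 3.11 outside, 3 and 6 genes, lambda shares of 21.3% and 27.6% and a ratio of 0.56. With the extreme barcodes left out, the level outside was the 2.48 and 4.83 CPM given in the results. At resolution 0.5 no EYFP negative cell was called B-like, so none of its values or ratios could be given. EYFP positive values were then a level of 141, a share of 12.1%, 0.12 V genes per cell, a lambda share of 0.0%, and 88.4 CPM and 4.66% outside B-like, against 14.8% outside in the EYFP negative library. Leaving acinar, mitochondrial and ribosomal genes out of the total gave levels of 303 and 273, and the median level over EYFP positive cells was 0. The stricter filter (500 genes, 10% mitochondrial) gave EYFP positive values of 60.8% of B-like cells with a V UMI, 0.78 V genes per cell and 88.6 CPM outside. Thinned to 1000 UMIs, shares were 22.3% and 16.5% and V genes per cell 0.23 and 0.18. Thinned to 500 UMIs, shares were 8.18% and 8.80%. Counting a gene or cell as positive from 2 UMIs gave 16.1% and 25.0% of B-like cells, 0.13 and 0.14 V genes per cell, 0.43% and 0.77% of T-like cells, 0.13% and 0.89% of barcodes outside B-like, and 18 and 31 V genes seen per library against 45 and 65 in kept barcodes. A minimum of 3 UMIs gave 6 and 15 V genes at least 2-fold higher, and, with extreme barcodes also left out (added after seeing the data), 6 and 17. Every deposited barcode gave 51.0 and 135 CPM outside. A leading gene at 0.8 of the UMIs gave 14.3% of EYFP negative cells for light chains. Removing Scrublet doublets, 1 of them an extreme barcode, gave 30.5 CPM outside in the EYFP negative library, against 148 with both its extreme barcodes counted. Thinning the V UMIs of that library to the total of the other library left 38 V genes. Among other added settings, cluster 3 alone gave a V level ratio of 1.29, and leaving out shared barcodes left 45 and 62 V genes. The rule of 10 times the median of B-like cells gave the same 2 extreme barcodes in the EYFP negative library and could not be applied where that median is 0. The cause of these moves was not tested beyond which barcodes each setting counts. With 65 and 116 V UMIs in B-like cells, most single V genes had too few UMIs to be compared between the libraries. No paired analysis was possible because each group has 1 library.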
